A study of Mus musculus with 4 samples.

Results

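The 9 genes described here act in fatty acid metabolism: the medium-chain acyl-CoA ligase gene Acsm3, the fatty acid binding protein gene Fabp5, the beta-oxidation genes Cpt1a, Acadm and Hadha, the lipase gene Mgll, and the synthesis genes Fasn, Scd1 and Scd2. They are a named list, drawn up with earlier results of these data known, and make up 9 of the 31053 genes counted in each matrix. None of them encodes a ketone body enzyme, and ketone metabolism entered through the wider lists of 131 genes to which all 9 belong. The cells came from the mouse prostate and were sequenced in 4 droplet libraries. The study sorted cells by a reporter, P2-Runx1:RFP, in which the red fluorescent protein RFP is driven by the proximal P2 promoter of Runx1, and asked which epithelial cells carry that promoter's activity and how they develop. In 3 adult libraries, here called runs 1 to 3, live EPCAM+ epithelial cells of reporter mice on an ICR (CD-1) background, older than 8 weeks, were sorted as RFP+ or RFP- from intact males, lobe by lobe: ventral (VP), anterior (AP) and dorsolateral (DLP). Lobes were pooled across mice, and each population carried an oligonucleotide barcode. Castrated males, taken at least 4 weeks after surgery, gave cells pooled over lobes in run 1 and cells of each lobe in run 2, and none in run 3. The fourth library held EPCAM+ cells of urogenital sinus explants, the embryonic tissue from which the prostate buds, taken at E15.5 and cultured for 0, 1, 3 or 6 days in medium with insulin and 10 µM dihydrotestosterone (DHT), an androgen. The explants of each day formed 1 pool.

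Fatty acids enter a cell or are made in it, are carried by binding proteins such as Fabp5, and are activated to acyl-CoA by ligases such as Acsm3. Cpt1a, carnitine palmitoyltransferase 1a, admits long-chain acyl-CoA to the mitochondrion, where Acadm, medium-chain acyl-CoA dehydrogenase, and Hadha, a subunit of the trifunctional protein, take part in its oxidation. Fasn, fatty acid synthase, builds palmitate, and the stearoyl-CoA desaturases Scd1 and Scd2 place a double bond in saturated acyl chains. Mgll, monoglyceride lipase, releases the last fatty acid from stored glycerides. Prostate epithelium is a secretory tissue that depends on androgens for its luminal cells, and lipid synthesis is known to respond to androgens there.

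On the GRCm38 genome Acsm3 (ENSMUSG00000030935) lies at chr7:119760923-119787513 on the plus strand, Mgll (ENSMUSG00000033174) at chr6:88724412-88828360 on the plus strand, and Fabp5 (ENSMUSG00000027533) at chr3:10012548-10016607 on the plus strand. Scd2 (plus strand, chr19:44293674-44306864) and Scd1 (minus strand, chr19:44394455-44407879) are paralogs that neighbour each other. Of the 9 genes, 6 had a promoter in the RefSeq table used (GRCm38.p6), with 7 start sites in all. The 250 bases before the start are shown for Acsm3 and Mgll, the genes whose levels were most unequal between the luminal clusters described below. Capitals mark matches to 3 motifs: CCAAT, the E-box CACGTG, and AGAACA, the core of androgen receptor sites, on either strand.
Acsm3, chr7:119760673-119760922, plus strand: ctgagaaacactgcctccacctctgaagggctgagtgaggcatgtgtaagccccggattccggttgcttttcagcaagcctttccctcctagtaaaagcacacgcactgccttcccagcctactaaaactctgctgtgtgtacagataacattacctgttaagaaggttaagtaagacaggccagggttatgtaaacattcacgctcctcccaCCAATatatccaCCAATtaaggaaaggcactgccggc
Mgll, chr6:88724162-88724411, plus strand: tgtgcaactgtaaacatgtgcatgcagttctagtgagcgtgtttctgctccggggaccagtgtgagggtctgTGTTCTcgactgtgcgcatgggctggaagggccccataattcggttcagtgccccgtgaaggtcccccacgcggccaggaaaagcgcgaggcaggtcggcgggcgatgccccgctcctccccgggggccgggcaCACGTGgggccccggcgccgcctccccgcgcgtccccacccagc
The Acsm3 window held CCAAT at 37 and at 25 bases before the start, a motif found in 3 of the 7 member windows and in 33.8% of all 32851 promoters. The Mgll window held AGAACA on the minus strand at 178 to 173 bases before the start and CACGTG at 44 to 39 bases, found in 16.1% and 6.02% of all promoters and in 1 of the 7 member windows each. The RUNX core TGTGGT was in 0 of the 7 windows and in 14.0% of all promoters. A match describes letters in the window and no binding was measured.

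After filtering and barcode assignment 824, 2194 and 1673 cells of runs 1 to 3 and 5198 explant cells were kept, with median UMI counts (unique molecular identifiers, 1 per captured transcript) of 9750 to 14784.5 per cell. Cells were clustered without the 131 list genes and named by fixed markers, the names ending in -like: Lum-A, Lum-B, Lum-C and Lum-D for luminal clusters, and basal. UMIs were summed per run, lobe and RFP gate, and each sum is 1 sample, so error bars and p-values describe the spread between 3 runs, each a separate pool of mice. Luminal-like sums held 10 to 211 cells and 522586 to 9212607 UMIs. The 50 most abundant genes took 64.6% to 67.6% of the UMIs in VP luminal-like sums, against 22.8% to 41.0% in AP and 30.3% to 48.9% in DLP RFP-. Levels compared between lobes are therefore in CPM after edgeR's TMM scaling (UMIs scaled to a common total in a way that discounts a few dominant genes), and values named as plain CPM are unscaled. The DLP RFP+ population of intact mice was recovered only in run 3. Intervals and limits given for single sums are exact 95% Poisson intervals and cover counting error only.

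Levels in the clusters are given as a description because the clusters came from these cells, and the share of all genes that differ as much is not given. In the Lum-D-like cluster, led by Psca, Pglyrp1 and Krt4, Acsm3 averaged 144 ± 35.1 CPM (SD, n = 3), and the other epithelial clusters averaged 0.384 to 1.84 CPM. Mgll averaged 242 ± 88.8 CPM (SD, n = 2) in Lum-C-like cells, with averages of 13.4 ± 3.78 in the Lum-A-like, 6.5 ± 3.09 in the Lum-B-like and 2.31 ± 0.125 in the Lum-D-like cluster (n = 3). Fabp5 averaged 225 ± 24.8 CPM in basal-like and 218 ± 9.42 in Lum-B-like cells, then 70.8 ± 9.56 and 64.1 ± 8.13 in the Lum-A-like and Lum-C-like clusters, and 17.4 ± 12.0 CPM in Lum-D-like cells. The Lum-D-like cluster thus held the highest Acsm3 and the lowest Fabp5 of these clusters. Acadm was also highest there, at 129 ± 33.0 CPM against 22.0 to 58.8 CPM in the other named epithelial clusters, while Scd1 was lowest, at 15.7 ± 3.41 CPM against 28.5 to 84.8 CPM. Scd2 ranged from 101 to 187 CPM over the same clusters. These cluster values are plain CPM. With the 50 most abundant genes left out of the library sizes, Scd2 ran from 136 (basal-like) to 404 CPM (Lum-A-like). Fabp5 then averaged 219 CPM for the Lum-A-like cluster against 108 for the Lum-C-like one, so their levels were no longer close. Acsm3 and Acadm remained highest, and Fabp5 and Scd1 lowest, in the Lum-D-like cluster. Among the sorted cells that scored for other cell types, a group named endothelial had 157 ± 189 CPM of Mgll (n = 3), and the values ran from 4.35 to 369 CPM between runs. That group joined a cluster led by Fabp4 and Aqp1 with a smaller one led by Igkc and Jchain. The smaller cluster had no endothelial marker among its 10 leading genes, and its part in the spread was not tested.

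**Figure D1:**
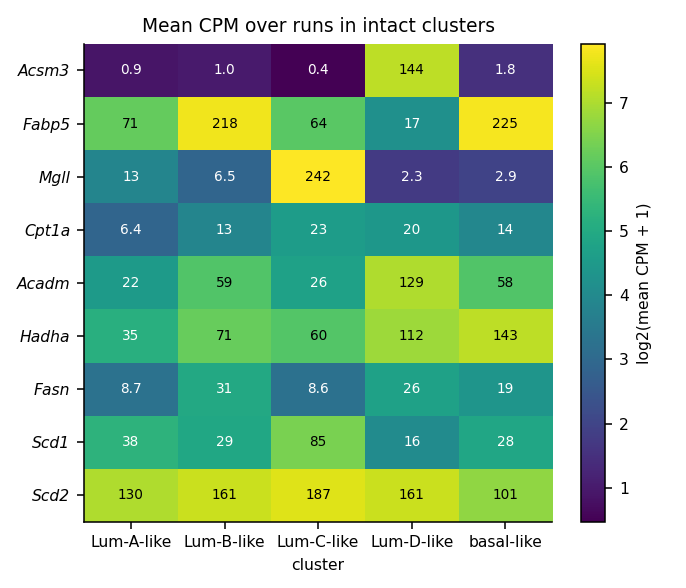
Mean level over runs of each of the 9 genes (rows) in the epithelial clusters of intact adult cells (columns), the number in each cell in CPM and its colour on the log2(mean CPM + 1) scale. Acsm3 stands at 144 CPM in the Lum-D-like cluster and under 2 CPM in the other epithelial clusters, Mgll at 242 CPM in the Lum-C-like cluster, and Fabp5 is lowest in the Lum-D-like cluster.

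The sorted populations differed in which cluster filled them. AP RFP+ luminal-like sums were mostly Lum-D-like (181 of 211, 82 of 102 and 128 of 147 cells in runs 1 to 3), and AP RFP- sums mostly Lum-B-like (68 of 77, 121 of 150 and 42 of 45 cells). VP RFP+ sums were mostly Lum-A-like (44 of 51, 179 of 191 and 139 of 147 cells). VP RFP- sums mixed Lum-A-like cells (5 of 10, 46 of 67 and 29 of 46) with Lum-C-like cells (3, 20 and 15). A level in a sum can differ because cells of a type are more or fewer or because each holds more or less RNA, and a sum does not tell these apart. For the intact sums, values within a cluster are given below for Acsm3, Fabp5 and Mgll where at least 10 cells were present.

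Acsm3, which activates medium-chain fatty acids, was the gene by which earlier results of these data set the Lum-D-like cells apart, so its levels are given without a test. In AP RFP+ luminal-like sums it was at 87.8, 75.0 and 66.8 TMM-scaled CPM in runs 1, 2 and 3. AP RFP- sums had 11.2, 1.64 and 0, DLP RFP- sums 15.6, 5.12 and 0.497, VP RFP+ sums 10.8, 1.13 and 0.691, and VP RFP- sums 4.95, 0 and 0. All 3 AP RFP+ values lay above all 12 values of the other groups, whose order among themselves did not hold beyond the spread between runs. Run 1 was the highest in every group. Lum-D-like cells outside AP RFP+ numbered 5 in AP RFP-, 8 in DLP RFP-, 6 in VP RFP+ and 2 in VP RFP- in run 1, against 7, 7, 6 and 0 in run 2 and 0, 0, 7 and 0 in run 3. Within AP RFP+ Lum-D-like cells the level was 183 (168 to 200), 173 (147 to 202) and 118 (101 to 137) CPM in runs 1 to 3. The 17 Lum-D-like cells of DLP RFP+, in run 3 alone, had 83.3 CPM (48.5 to 133). AP RFP+ Lum-B-like cells of run 1 had 4.80 CPM (0.991 to 14.0). Over the 15 luminal-like sums the genes most like Acsm3 were Krt4 (Pearson's r = 0.97), Tspan8 (0.96), Aplp2 (0.95), Cd9 (0.94) and Pglyrp1 (0.94), a description over sums that share libraries and cell mixtures.

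**Figure D2:**
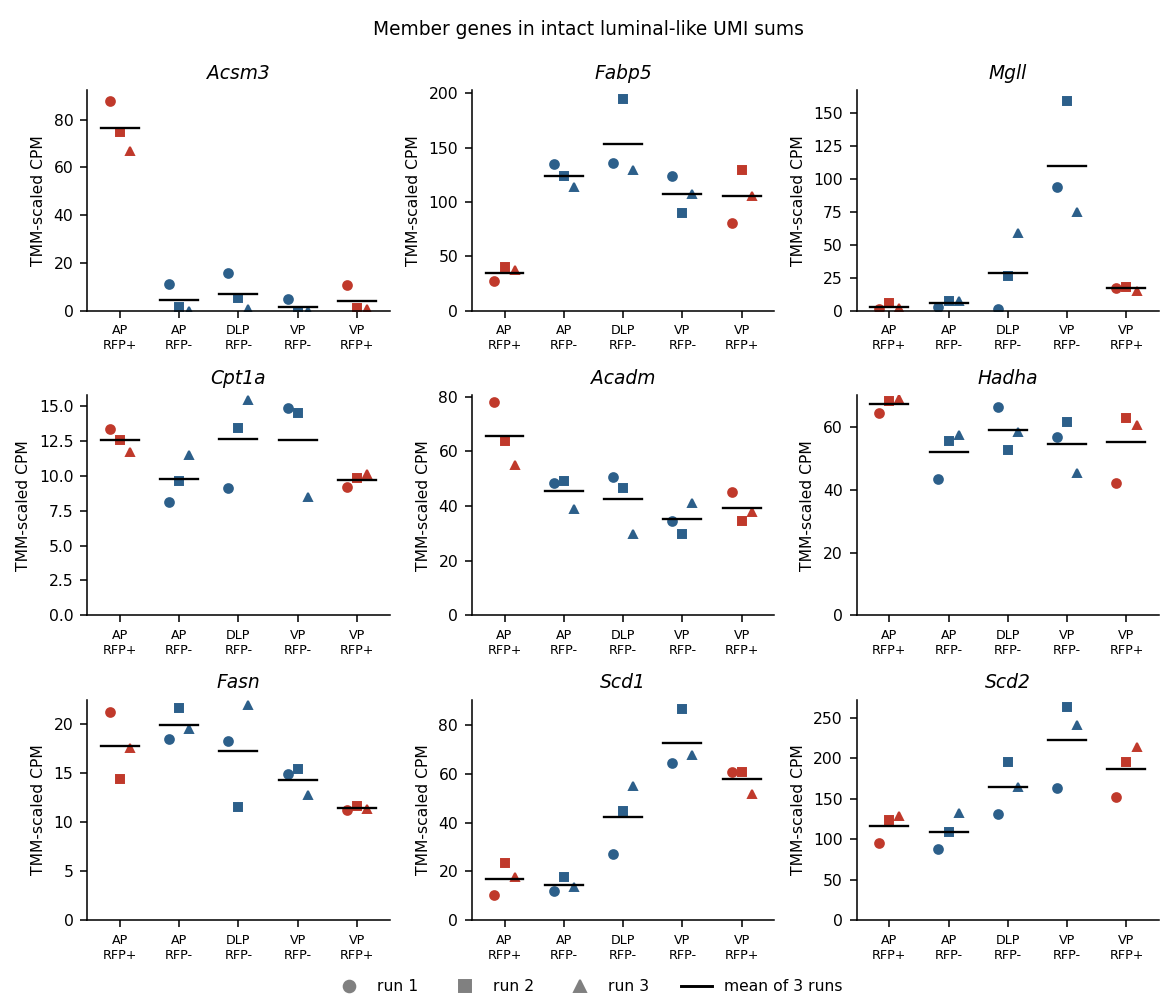
Level of each gene in intact luminal-like sums by lobe and RFP gate, in TMM-scaled CPM on a linear axis, each point 1 run (shapes for runs, red for RFP+, blue for RFP-) and each line the mean of 3 runs. The 3 AP RFP+ points of Acsm3 lie between 66.8 and 87.8 and those of Fabp5 between 27.2 and 40.4, and the VP RFP- points of Mgll lie between 74.9 and 159.

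Fabp5, which carries fatty acids within the cytoplasm, was lower in RFP+ than in RFP- luminal-like cells of the AP. AP RFP+ sums had 27.2, 40.4 and 37.1 TMM-scaled CPM in runs 1 to 3, and AP RFP- sums had 135, 124 and 114. The groups did not overlap, and the other 3 groups, at 80.4 to 195, lay above AP RFP+ as well. The means were 34.9 ± 6.89 and 124 ± 10.8 (SD, n = 3), 3.60-fold lower in RFP+, a log2 change of -1.85 (SE 0.23, adjusted p = 6.6e-05, edgeR's quasi-likelihood test with Benjamini-Hochberg adjustment over 9503 genes). Of the 8 members tested here other than Acsm3, Fabp5 was the 1 that passed, against a background of 24.1% of all genes called in this contrast (12.7% higher and 11.4% lower). It stayed past the threshold in all 12 alternative settings, with log2 changes of -2.49 to -1.56. In the VP the same gate gave no such difference: RFP+ sums had 80.4, 130 and 106 and RFP- sums 124, 90.2 and 107, a log2 change of 0.00 (SE 0.22, adjusted p = 1 by edgeR). The difference between the AP and VP effects was itself tested and was -1.85 (SE 0.32, edgeR adjusted p = 0.00567), where 4.82% of genes passed (2.7% up and 2.12% down, 458 genes in all, and 1179 with the run as a block). Without run 2 it was -1.62 with an edgeR adjusted p of 0.182, and without run 3 -1.98 with 0.0814.

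Within clusters, Fabp5 in AP RFP+ Lum-D-like cells was at 14.2 (10.2 to 19.4), 14.0 (7.47 to 24.0) and 9.63 (5.26 to 16.1) CPM in runs 1 to 3. AP RFP- Lum-B-like cells had 218 (194 to 245), 180 (164 to 198) and 145 (117 to 177) CPM. The 24 Lum-B-like cells of AP RFP+ in run 1 had 184 CPM (152 to 221), within the range of the RFP- cells of that cluster. DLP RFP- Lum-B-like cells had 310, 479 and 243 CPM. Between lobes, RFP- luminal-like sums differed little: AP against VP gave a log2 change of 0.24 (SE 0.23, edgeR adjusted p = 0.544) and AP against DLP -0.30 (SE 0.22, edgeR adjusted p = 0.716). Over the 15 sums the genes most like Fabp5 were P4hb (r = 0.93), Spcs3 (0.91), Srp72 (0.90), Serp1 (0.89) and Nudt4 (0.88).

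Mgll, which completes the breakdown of stored glycerides, was highest in RFP- luminal-like cells of the VP. VP RFP- sums had 94.0, 159 and 74.9 TMM-scaled CPM in runs 1 to 3, VP RFP+ sums 17.4, 17.8 and 15, and AP RFP- sums 3.00, 7.28 and 6.88. These groups did not overlap, while DLP RFP- sums spread from 1.30 over 26.2 to 58.7. Within the VP, Mgll was 6.76-fold lower in RFP+ (16.7 ± 1.53 against 109 ± 44.1, SD, n = 3), with a log2 change of -2.76 (SE 0.54, edgeR adjusted p = 0.0378). It was the 1 member called in this contrast, in which 0.379% of genes passed (0.021% higher and 0.358% lower, 36 genes in all, and 82 with the run as a block). The call was lost without run 2 (edgeR adjusted p = 0.930), without run 3 (0.473) and when sums under 20 cells were left out, which removes VP RFP- of run 1 (0.0588), and with the run as a block the edgeR adjusted p was 0.00321. The RFP effect on Mgll did not differ detectably between AP and VP (log2 difference 1.61, SE 1.01, edgeR adjusted p = 0.435).

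Between lobes, RFP- luminal-like cells of the AP had 19.6-fold less Mgll than those of the VP, a log2 change of -4.29 (SE 0.64, edgeR adjusted p = 4.0e-04), a contrast in which 16.3% of genes passed (8.07% higher and 8.2% lower in AP). AP against DLP gave a log2 change of -2.47 (SE 0.66) and an edgeR adjusted p of 0.0984. With the run as a block that p was 0.0255, with DESeq2 0.0354 and without the filter on low counts 3.0e-04. Within clusters, VP RFP- Lum-C-like cells had 383 CPM of Mgll (343 to 427, 20 cells) in run 2 and 110 CPM (75.7 to 154, 15 cells) in run 3, and DLP RFP- Lum-C-like cells had 171 CPM (141 to 206, 18 cells) in run 3. Lum-A-like cells of VP RFP+ had 11.5 (7.84 to 16.4), 10.1 (8.09 to 12.4) and 9.39 CPM (7.25 to 12.0) in runs 1 to 3. Those of VP RFP- had 8.45 (5.08 to 13.2) in run 2 and 21.8 (13.3 to 33.7) in run 3. Within this cluster the intervals of the gates overlapped in run 2 and lay apart in run 3, where RFP- was higher. Fibroblast markers summed to 26.7 to 147 CPM in VP RFP- and 15.1 to 18.1 in VP RFP+, nearly all of it Dcn, with Col1a1 at 0 in every VP sum. Endothelial markers summed to 0 to 1.80 CPM in VP RFP- and 24.3 to 41.8 in AP RFP-, and adipocyte markers to 0 in VP and AP RFP- sums. The genes most like Mgll over the 15 sums were Mcee (r = 0.90), Fam46a (0.89), Wfdc3 (0.87), Emc7 (0.84) and Lamtor4 (0.83).

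**Figure D3:**
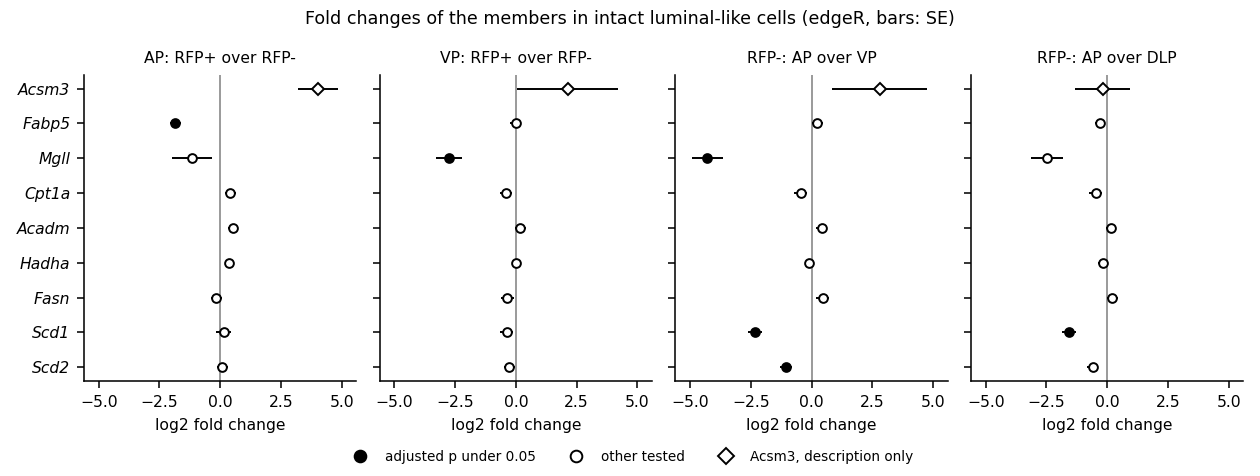
Fitted log2 fold changes (x axis) of the members (y axis) in 4 luminal-like contrasts with their standard errors as bars, filled where the edgeR adjusted p was under 0.05, with Acsm3 as an open diamond, given without a test. Fabp5 falls by 1.85 in AP RFP+, and Mgll, Scd1 and Scd2 are lower in AP than in VP among RFP- cells.

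The desaturases differed between lobes and not detectably between gates. The lobes also differed in which clusters filled their sums, and the part of the clusters in these differences was not tested. Scd1 in RFP- luminal-like sums was at 12.0, 17.6 and 13.8 TMM-scaled CPM in the AP, 27.4, 44.8 and 55.2 in the DLP and 64.3, 86.6 and 67.8 in the VP in runs 1 to 3. The 3 lobes did not overlap. AP was 5.02-fold lower than VP (log2 change -2.33, SE 0.30, edgeR adjusted p = 1.2e-04) and 2.95-fold lower than DLP (log2 change -1.56, SE 0.30, edgeR adjusted p = 0.0162). In AP against DLP, Scd1 was the 1 member called where 1.16% of genes passed (0.516% higher and 0.642% lower in AP, 110 genes in all, and 370 with the run as a block). That call was lost without run 2 (edgeR adjusted p = 0.183) or run 3 (0.435), while the AP to VP difference passed in all 11 alternatives. Scd2 was at 87.5, 109 and 132 in AP RFP-, 132, 196 and 165 in DLP RFP- and 163, 263 and 242 in VP RFP- sums. AP lay below VP by 2.06-fold (log2 change -1.05, SE 0.23, edgeR adjusted p = 0.00623), and the p was 0.149 without run 2 and 0.0585 without run 3. AP against DLP gave -0.60 (SE 0.23, edgeR adjusted p = 0.304, and 0.0173 with the run as a block). With Mgll, Scd1 and Scd2 were the 3 members called between AP and VP.

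RFP+ sums followed their lobe in both genes. Scd1 was at 10.3, 23.3 and 17.6 in AP RFP+ and 60.9, 60.8 and 51.8 in VP RFP+, with log2 changes against RFP- of 0.15 (SE 0.30) and -0.37 (SE 0.26). Scd2 was at 95, 124 and 128 in AP RFP+ and 152, 195 and 213 in VP RFP+, with log2 changes of 0.09 (SE 0.23) and -0.26 (SE 0.23). Their levels rose and fell together over the 15 sums (r = 0.90), and Scd1 also followed Mgll (r = 0.86). Fasn, upstream of both in synthesis, ran the other way (r = -0.65 with Scd1 and -0.64 with Scd2). It stayed at 11.3 to 21.9 TMM-scaled CPM in all 15 sums and passed in no contrast, its AP to VP log2 change in RFP- cells being 0.46 (SE 0.26, edgeR adjusted p = 0.256).

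The beta-oxidation members passed the test in no contrast of luminal-like cells, other than Acadm in the AP with the run as a block. Hadha was at 64.5, 68.2 and 68.7 TMM-scaled CPM in AP RFP+ sums and at 42.0 to 66.4 in the other 12. Acadm was at 78.2, 63.8 and 55.1 in AP RFP+ and 48.5, 49.1 and 39.0 in AP RFP-, so that the groups did not overlap. Its log2 change was 0.51 (SE 0.20) with an edgeR adjusted p of 0.0762, and 0.0160 with the run as a block. Hadha changed by 0.37 (SE 0.18, edgeR adjusted p = 0.154) and Cpt1a by 0.41 (SE 0.23, edgeR adjusted p = 0.218) in the same contrast. Cpt1a, the gate to mitochondrial oxidation, was at 11.7 to 13.3 in AP RFP+ and 8.15 to 11.5 in AP RFP-. The contrasts share groups, AP RFP- entering 3 of them, so their results are not independent of each other.

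The wider lists were read against the same backgrounds. Of the 122 listed genes that are not members, 75 were tested in luminal-like cells. In AP RFP+ against RFP-, 10 of them were higher and 3 lower (17.3%, where 24.1% of all genes passed), with a median log2 change of 0.16 against 0.00 over all genes. Mid1ip1, a regulator of fatty acid synthesis, rose by 1.28 on the log2 scale (edgeR adjusted p = 0.00584) and Acsl5, an acyl-CoA synthetase, by 1.10 (edgeR adjusted p = 0.00864), while the peroxisomal carnitine acyltransferase gene Crot fell by 0.74 (edgeR adjusted p = 0.0326).

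Between RFP- luminal-like cells of AP and VP, 7 of the 75 were higher in AP and 11 lower (24.0%, where 16.3% of all genes passed), with a median of -0.05 against 0.05 over all genes. Acaa2, the thiolase of mitochondrial beta-oxidation, was lower in AP (64.9 ± 25.9 against 242 ± 15.9 TMM-scaled CPM, log2 change -1.87), as were Oxct1, which admits ketone bodies to oxidation (-1.44), and Tecr, an enzyme of chain elongation (-1.05). Acsl3, which activates long-chain fatty acids, was higher in AP (142 ± 10.0 against 37.8 ± 11.4, log2 change 1.93), as were Acads (0.77) and Hsd17b4 (0.67). AP against DLP called 0 of the 75 by edgeR. Over these groups the markers of hematopoietic cells summed to 81.1 to 230 CPM in AP RFP+, 105 to 130 in AP RFP-, 243 to 285 in DLP RFP- and 0.285 to 10.1 in VP sums, largely from Cd52 and in places Cd74, with Ptprc at 0 to 4.93 CPM. Their part in the lobe differences was not tested.

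Basal-like cells, the outer layer of the epithelium, showed no member that passed a test. Acsm3 and Mgll were under the filter on low counts, at 0 to 6.79 TMM-scaled CPM in every basal-like sum. Fabp5 was at 164, 153 and 179 in AP RFP+ and 206, 229 and 265 in AP RFP-, groups that did not overlap, with a log2 change of -0.50 (SE 0.38, edgeR adjusted p = 1.00). In that contrast edgeR and DESeq2 each called 0 of 7944 genes (0.0%), and 80 genes by edgeR and 38 by DESeq2 had an unadjusted p under 0.05. Between RFP+ basal-like cells of AP and VP, 0.667% of genes passed (0.214% higher and 0.453% lower in AP, 53 genes in all, and 471 with the run as a block) and 0 of the 7 members tested did. Their log2 changes lay between -0.24 and 0.17. Of the other listed genes tested, G0s2, an inhibitor of triglyceride lipase, was lower in AP (6.11 against 53.1 TMM-scaled CPM on average, log2 change -2.97, edgeR adjusted p = 0.0240). Without run 2 or without run 3 edgeR called 0 genes in this contrast, G0s2 included, with 440 and 391 genes at an unadjusted p under 0.05. Fibroblast markers summed to 2704 to 3460 CPM in AP RFP+ and 5518 to 7828 CPM in VP RFP+ basal-like sums, and their part in the lobe difference was not tested. That marker list includes Dcn, which was itself among the leading genes of basal-like clusters. These sums therefore do not measure a share of fibroblasts.

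Between compartments, which were defined from the same cells and are therefore described without a test, Fabp5 was higher in basal-like cells in every run, at 199, 248 and 226 CPM against 86.6, 100 and 74.8 in luminal-like cells of runs 1 to 3. Hadha was also higher, at 133, 166 and 130 against 70.7, 52.0 and 48.6 CPM. The luminal over basal log2 ratios were -1.36 ± 0.20 and -1.32 ± 0.38 (SD, n = 3), beside a median over all genes of -0.34, -0.78 and -0.73 in the 3 runs. Acsm3 (29.0 ± 30.8 against 1.84 ± 1.13 CPM) and Mgll (21.9 ± 10.5 against 2.93 ± 1.77 CPM) were higher in luminal-like cells in 3 of 3 runs. These 4 lay past 2-fold, beside 36.5% of the genes that averaged 20 CPM or more (6.5% higher and 30.0% lower in luminal-like cells, and 27.2% in all with the 50 most abundant genes left out of the library sizes). Without those 50 genes Fabp5 and Hadha were at -0.74 and -0.71, under 2-fold, and Scd2 at 1.16, past it. Acsm3 and Mgll averaged under 20 CPM. Cpt1a, Acadm and Fasn had ratios of -0.31, -0.34 and -0.31, which turned to 0.27, 0.27 and 0.28 in the same setting, so no direction is given for them. Scd2 was higher in luminal-like cells, at 145 ± 8.07 against 101 ± 21.2 CPM.

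Castration was compared with the intact state within run 2 alone, so the values below are single sums with no replicate and no test. A change is counted past 2-fold where the 2 sums average 20 CPM or more. Most castrated luminal-like cells fell in clusters that intact mice hardly filled, led by Pnliprp1 and Clu in the AP and DLP and by Ang4 and Ang5 in the VP. In the AP RFP+ sums Acsm3 was at 1.5 CPM (0.486 to 3.49) in castrated and 91.5 CPM (78.1 to 106) in intact mice, 61.2-fold lower (25.7 to 191). Lum-D-like cells were 17 of 189 in the castrated and 82 of 102 in the intact sum, and Acsm3 within them was at 28.6 CPM (9.30 to 66.8) against 173 CPM. The 155 cells of the Pnliprp1 cluster held 0 UMIs of Acsm3, which allows up to 1.45 CPM. Acsm3 met the 20 CPM minimum only through the intact sum, mostly of the Lum-D-like cells that earlier results set apart by this gene. Its fall is therefore not read against the share of all genes. Of the 6 members that met the minimum no other lay past 2-fold in this pair, where 12.2% of genes did. Castrated RFP+ cells of run 1, 11 luminal-like cells pooled over lobes, had 9.75 CPM of Acsm3 (1.18 to 35.2). Castrated DLP RFP+ cells, which have no intact counterpart in run 2, had 2 UMIs of Acsm3 in the 128 cells of the Pnliprp1 cluster, 0.959 CPM (0.116 to 3.46).

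Fabp5 rose 18.9-fold (17.6 to 20.5) in VP RFP+ luminal-like cells, from 87.1 CPM (81.1 to 93.3) in intact to 1649 CPM (1598 to 1700) in castrated mice. The log2 ratio was 4.23, and 3.20 without the 50 most abundant genes. In this pair the median gene shifted by 0.92, and 45.0% of genes lay past 2-fold (43.4% higher and 1.61% lower), against 12.9% without the 50 most abundant. Of 5 members that averaged 20 CPM or more, 4 lay past 2-fold, 3 higher and 1 lower. The Ang4 cluster held 106 of the 126 castrated cells and 97.5% of the 4059 Fabp5 UMIs, and the 10 cells with most held 44.4% of them. Fabp5, itself among the genes that lead that cluster, was at 2087 CPM in it, with a UMI in 96 of the 106 cells. The 11 Lum-D-like cells of the same castrated sum held 1 UMI of it. In the AP it was at 97.5 CPM (87.2 to 109) in castrated and 49.3 (39.6 to 60.6) in intact RFP+ cells, under 2-fold. It went the other way in DLP RFP- cells, at 53.3 CPM (34.5 to 78.6) against 205 (183 to 230), and in VP RFP+ basal-like cells, at 81.8 CPM (56.7 to 114) against 232 CPM. In these pairs 12.3% and 14.0% of genes lay past 2-fold. Intact VP RFP+ basal-like sums of runs 1 and 3 had 157 and 48.4 CPM of Fabp5. The castrated value of that population thus lay within the spread of its intact runs. The DLP RFP- sums held 20 castrated cells, 2 of them Lum-B-like, and 67 intact cells, 37 of them Lum-B-like. Castrated RFP+ cells of run 1, pooled over lobes, had 43.9 CPM (20.1 to 83.3).

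The desaturases were lower in castrated than in intact basal-like cells of run 2. Scd2 was at 45.4 CPM (34.4 to 58.9) against 147 (127 to 170) in AP RFP+ basal-like cells, 3.24-fold lower (2.40 to 4.44), and at 48.1 CPM (29.4 to 74.4) against 128 (104 to 155) in VP RFP+ basal-like cells, 2.65-fold lower (1.63 to 4.52). Scd1 was at 12.8 CPM (7.29 to 20.7) against 33.8 (24.5 to 45.3) in the AP, where 9.09% of genes lay past 2-fold, and at 9.63 CPM (2.62 to 24.7) against 29.0 (18.4 to 43.6) in the VP. Run 2 was the highest intact run for both genes in both lobes. In runs 1 and 3 these intact sums had 91.0 and 97.3 CPM of Scd2 in the AP and 80.3 and 100 in the VP. Scd1 was at 21.2 and 20.6 CPM in the AP and 18.3 and 20.8 in the VP. The castrated values lay below all of these, but the Scd1 intervals reached some of them. In VP RFP+ luminal-like cells Scd1 was at 19.5 CPM (14.4 to 25.9) against 40.8 (36.8 to 45.2), a log2 ratio of -1.03 and of -2.07 without the 50 most abundant genes. Scd2 in the same cells was at 102 CPM (89.7 to 115) against 131 (124 to 139), with log2 ratios of -0.36 and -1.39. Acadm and Hadha in these cells had ratios of 1.39 and 1.02, which were 0.39 and 0.00 without those 50 genes. In AP RFP- cells 0 of 6 members lay past 2-fold, where 13.6% of genes did. Scd2 there was at 160 CPM (136 to 188) against 132 (121 to 145). That castrated sum held 49 cells, and its Scd2 differed by cluster. It was at 71.4 CPM (47.8 to 103) in the 35 cells of the Pnliprp1 cluster. The 10 Lum-A-like cells had 241 CPM (200 to 288). Scd1 was at 2.46 CPM (0.0623 to 13.7, 1 UMI) and 47.1 CPM (30.1 to 70.0) in these clusters. Their median UMIs per cell were 11628 and 48710. The part of the cluster mixture in the sum was not tested. Mgll was at 0 UMIs (up to 7.86 CPM) in castrated DLP RFP- luminal-like cells and at 41 UMIs, 27.7 CPM (19.9 to 37.6), in intact ones. The castrated sum held 20 cells, 0 of them Lum-C-like, and the intact sum 67 cells, 9 of them Lum-C-like.

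**Figure D4:**
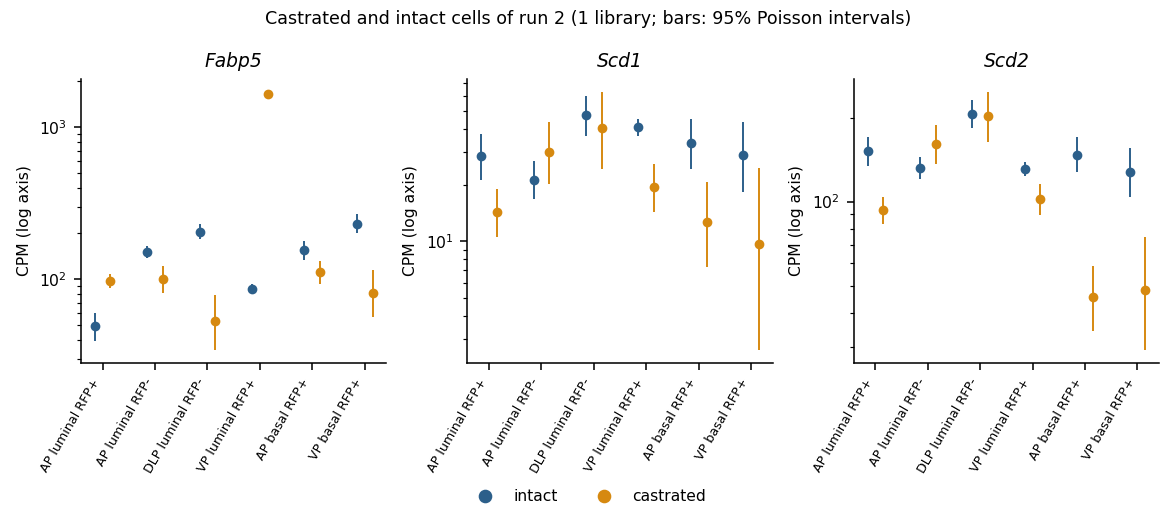
Fabp5, Scd1 and Scd2 in castrated and intact cells of run 2 by lobe, RFP gate and compartment, in CPM on a log axis, each point 1 sum with its exact 95% Poisson interval. Fabp5 is at 1649 CPM in castrated VP RFP+ luminal-like cells and 87.1 CPM in intact ones, and Scd2 in basal-like cells is lower after castration in both lobes.

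The DLP RFP+ luminal-like population could be set beside DLP RFP- only in run 3, with 65 and 75 cells and no test. The RFP+ cells were mostly Lum-A-like (39 of 65), and the median gene was lower by 0.74 on the log2 scale. Fabp5 was at 55.7 CPM (47.7 to 64.7) in RFP+ and 162 (143 to 183) in RFP-, a log2 ratio of -1.52 and of -0.82 without the 50 most abundant genes. Scd1 was at 30.8 CPM (24.9 to 37.6) against 69.0 (56.8 to 83.1), with log2 ratios of -1.14 and -0.44. These were the 2 of 6 members past 2-fold, beside 32.5% of all genes (1.9% higher and 30.6% lower, and 12.6% in all without the 50 most abundant genes). Mgll was at 58.3 CPM (50.1 to 67.5) against 73.4 (60.8 to 87.9). Acsm3 had 19 UMIs in RFP+, 17 of them in Lum-D-like cells, and 1 in RFP-, a ratio of 9.89 (1.57 to 411).

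In the explants, prostatic epithelium-like cells numbered 463, 563, 942 and 1962 at days 0, 1, 3 and 6, and each day was 1 pooled sample with no replicate. Scd1 rose from 0.507 CPM (0.186 to 1.10, 6 UMIs) at day 0 to 9.15 (7.52 to 11) at day 1, 39.7 (36.7 to 42.8) at day 3 and 38.1 (35.9 to 40.5) at day 6. It was 18.1-fold higher at day 1 than at day 0 (8.04 to 50.3), 4.34-fold higher at day 3 than at day 1 (3.54 to 5.35) and 0.962-fold between days 3 and 6 (0.874 to 1.06). The prostatic cells of each day lay largely in different clusters. The cluster led by Hbb-bs and Shh held 460 of them at day 0, 385 at day 1, 37 at day 3 and 0 at day 6, and those led by Wif1 and by Krt14 held 1080 and 880 at day 6. A cluster led by Ero1l held 125 of them at day 1 and 1, 6 and 2 on days 0, 3 and 6. Scd1 there was at 3.41 CPM (1.25 to 7.42) at day 1. The study kept a cluster with hypoxia and stress terms apart from its prostatic epithelium, and whether the Ero1l cluster matches it was not tested. Within the Hbb-bs cluster Scd1 was at 0.509, 9.45 and 29.5 CPM on days 0, 1 and 3. In the Wif1 cluster it was at 18.8 (7.56 to 38.8, 21 cells), 52.6 (48.3 to 57.3) and 44.1 CPM (41.1 to 47.3) on days 1, 3 and 6. In the Krt14 cluster the step from day 1 to day 3 was within counting error, from 15.4 (7.03 to 29.2, 32 cells) to 18.8 CPM (15.4 to 22.6), with 28.8 CPM (25.7 to 32.1) at day 6. In cells with mesonephric markers led by Dcdc2a it ran from 1.53 over 25.1 and 47.3 to 129 CPM at days 0, 1, 3 and 6. In mesonephric cells led by Msx1 it was at 20.2, 61.1, 53.6 and 16.0 CPM. Scd2 moved less, at 297 CPM at day 0, 496 at day 3 and 358 at day 6. The explants were placed in DHT and insulin at once, and time in culture, tissue growth and these agents cannot be told apart.

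**Figure D5:**
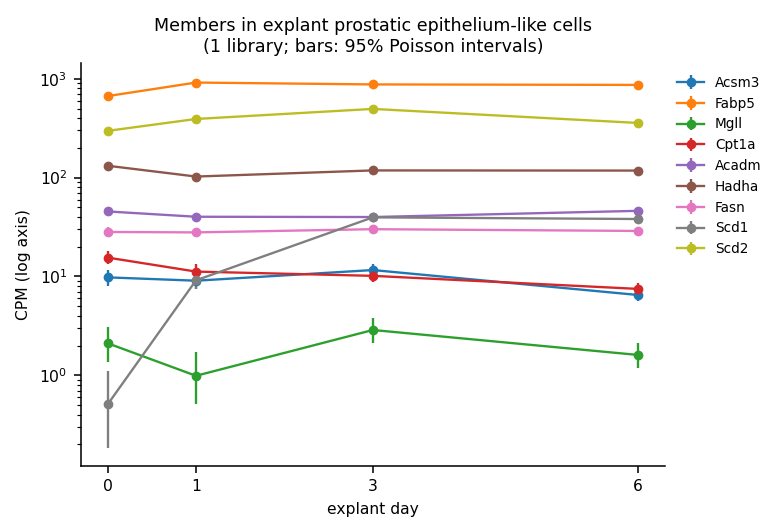
Level of each gene in prostatic epithelium-like explant cells by day of culture, in CPM on a log axis, each point 1 pooled sample with its exact 95% Poisson interval. Scd1 goes from 0.507 CPM at day 0 to 39.7 CPM at day 3, and the other genes stay within 3-fold.

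The other members changed little in culture. Scd1 between days 1 and 3 was the 1 of 6 members past 2-fold there, where 1.91% of genes were, and 0 of 5 members that averaged 20 CPM or more lay past 2-fold between days 0 and 1 (2.04% of genes), 0 of 6 between days 3 and 6 (0.903%) and 0 of 5 between days 0 and 6 (7.88%), Scd1 being under that minimum against day 0. Fabp5, abundant throughout, was at 669, 917, 877 and 867 CPM. Cpt1a was 2.08-fold lower (1.70 to 2.54) at day 6, at 7.49 CPM (6.53 to 8.55), than at day 0, under the minimum for a call. Hadha (132, 103, 118 and 118 CPM), Acadm (45.5, 40.2, 39.9 and 46.1) and Fasn (28.2, 27.9, 30.1 and 28.9) stayed within a narrow range. Acsm3 was at 9.79, 9.06, 11.6 and 6.49 CPM, and Mgll at 2.87 CPM or less. A further cluster, led by Psca and Krt4, scored highest for the urothelial list but had none of its markers among its 10 leading genes. The Wif1 and Dcdc2a clusters had none of theirs there either, and were named by the score alone. Psca, Krt4, Nupr1 and Ly6d, leading genes of the Psca cluster, are ones by which the study characterised a cluster of its developing prostatic epithelium. The Psca cluster is therefore left unnamed. Its 8, 38, 108 and 86 cells of days 0, 1, 3 and 6 are outside the prostatic sums. Acsm3 there was at 19.4 (9.70 to 34.8), 43.8 (35.1 to 54.0) and 30.1 CPM (21.7 to 40.7) on days 1, 3 and 6. The Krt14 cluster had 23.9 (13.1 to 40.1), 27.6 (23.5 to 32.2) and 15.9 CPM (13.7 to 18.4) on those days, and the Wif1 cluster 2.69 CPM or less. Fabp5 in the Psca cluster was at 603, 1087 and 1467 CPM on days 1, 3 and 6, beside 1632, 785 and 632 CPM in the Krt14 cluster and 801, 931 and 1018 CPM in the Wif1 cluster, so that the order of the clusters changed with the day.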

How the data were processed

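The authors counted UMIs per gene with Cell Ranger 3.1.0 on the mm10 (GRCm38) genome and deposited 1 matrix of unnormalised counts per library, with barcode tables. Cell Ranger keeps reads that map to 1 gene, so reads shared by paralogs (Scd1 and Scd2) or pseudogenes are lost. Adult cells with 750 to 7500 genes and under 10% mitochondrial UMIs were kept, and explant cells with at least 1000 genes and under 7.5%, each assigned to 1 barcode. Scrublet marked under 0.5% of cells, so doublets were handled by barcode and by an alternative without the highest 6% of scores. Libraries shared 1 to 4 cell barcodes. Seurat 5.3.0 in R 4.3.3 integrated the runs and clustered the cells (50 components, resolution 0.3) without the list genes. Sums of at least 10 cells were tested with edgeR 4.0.16 (TMM, filterByExpr, quasi-likelihood F test, 1 fit per compartment, Benjamini-Hochberg, threshold 0.05). DESeq2 1.42.0 was an alternative. Ratios without replicates were taken as log2(CPM + 1), and folds on CPM. On simulated counts for AP RFP+ against RFP- over 8838 genes, edgeR recovered 92% of 4-fold and 52% of 2-fold changes.

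The members and the lists were chosen with earlier results of these data known, and which values put each member on the list is recorded only for Acsm3, for which no test is given in AP RFP+ against RFP-. Among the other list genes, those named are the 3 highest and 3 lowest log2 changes past the threshold with a mean of at least 20 CPM, except results that are not reported here. The genes named as most alike are the 5 with the highest r among genes of at least 50 CPM. The populations of a run came from the same pool of mice, which is why the run was tried as a block. Deviations of same-run sums correlated at 0.0605 to 0.698. In run 3 the barcode sequences listed for VP RFP+ and VP RFP- repeat those of AP, while their oligo names and oligo sequences match those of run 2, and populations were taken by barcode number. No intact DLP RFP+ sums of runs 1 and 2 and no cells without a single barcode were analysed here. Promoters came from RefSeq (GRCm38.p6).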

Additional observations from a re-analysis of the deposited data

Results flagged for a closer look

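The RFP gate went with a different change of Fabp5 in the 2 lobes compared. Fabp5 was lower in RFP+ than RFP- luminal-like cells in all 3 runs of the AP and higher in 1 of 3 runs of the VP, and the test of the difference itself gave -1.85 on the log2 scale (SE 0.32, adjusted p = 0.00567 by edgeR's quasi-likelihood test). The edgeR adjusted p was 0.182 without run 2 and 0.0814 without run 3. The luminal-like cells of the gates were mostly of different clusters in the AP (Lum-D-like and Lum-B-like) while in the VP RFP+ sums were mostly Lum-A-like and RFP- sums also held Lum-C-like cells, and the part of the cluster mixture in the difference was not tested.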

How the results depend on the processing

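Of 1330 single-gene results under an alternative, 1139 kept their side of the threshold or moved less than the spread, and 0 that were called reversed sign. Counts of genes called moved most in contrasts with few calls. In VP RFP+ against RFP- (36 genes, 1 member) the count was 92 without the low-count filter, 64 with DESeq2, 20 with only the 2 groups in the fit, and 0 to 19 genes and 0 to 1 members when a run was left out (0 genes without run 2 or run 3, with 458 and 378 at an unadjusted p under 0.05), and 0 members passed with at least 20 cells per sum. In RFP- AP against DLP (110 genes, 1 member) it was 287 genes and 2 members without the filter, 172 and 2 with DESeq2, 62 genes with only those groups, 5 to 70 genes and 0 to 1 members with a run left out, and 0 genes and 0 members from cells under 7500 UMIs (62 of 1877 genes at an unadjusted p under 0.05). AP RFP+ against RFP- (2289 genes) gave 258 of 1877 genes from those cells, and 843 to 1789 genes with a run left out, Fabp5 among them each time. RFP- AP against VP (1546 genes) gave 543 to 1137, and the AP and VP difference (458 genes, 1 member) 5 to 212 genes and 0 to 1 members. In basal-like cells AP RFP+ against RFP- gave 11 genes without the filter by edgeR, and RFP+ AP against VP (53 genes) gave 215 without it, 87 with DESeq2, 26 with only those groups, 0 to 55 with a run left out, and 0 from cells under 7500 UMIs (127 at an unadjusted p under 0.05). For VP luminal-like contrasts and the AP and VP difference, cells under 7500 UMIs could not be fitted.

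With the run as a replicate block the counts were 82 genes in VP RFP+ against RFP-, 370 genes and 3 members in RFP- AP against DLP, 1179 genes in the AP and VP difference, 2 genes in AP basal-like RFP+ against RFP- and 471 genes in RFP+ basal-like AP against VP. The block changed the calls of Acadm in AP RFP+ against RFP- and of Mgll and Scd2 in RFP- AP against DLP, and no other member's.

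Without replicates, the members past 2-fold after castration in AP RFP+ luminal-like cells (1, Acsm3) became 2 without the 50 most abundant genes, 3 by the mean over single cells, 2 from cells under 7500 UMIs and 2 relative to the median gene, a setting chosen after seeing the data. In AP RFP- (0) 1 passed by the mean over single cells, in DLP RFP- (1) 2 without the 50 genes, and in AP basal-like cells (2) 1 at resolution 0.6. In DLP RFP+ against RFP- of run 3 (2) 1 passed without the 50 genes and 0 relative to the median gene. In explants between days 0 and 6 (0) 1 passed without the 50 genes. Genes at a few UMIs, such as Acsm3 outside Lum-D-like cells and Scd1 at day 0, are limited by depth.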

Other observations

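Among the other listed genes, Lpl, lipoprotein lipase, which frees fatty acids from circulating triglycerides, differed widely after castration, and it was chosen here after its values were seen. In run 2 it was at 261 CPM in castrated and 2.19 CPM (4 UMIs) in intact AP RFP+ luminal-like cells, at 130 against 11.7 CPM in AP RFP-, at 78.8 against 35.8 CPM in DLP RFP- and at 45.5 against 1.30 CPM in VP RFP+ cells. In these pairs 12.2%, 13.6%, 12.3% and 45.0% of genes lay past 2-fold, the last being 12.9% without the 50 most abundant genes. Lpl is itself among the genes that lead the Pnliprp1 cluster, which held 155 of the 189 castrated AP RFP+ luminal-like cells. Acsl3 was at 253 CPM in castrated and 31.0 CPM in intact VP RFP+ luminal-like cells. In the explants, Slc27a1, a fatty acid transporter, went from 10.5 CPM at day 0 to 41.5 CPM at day 6, Insig1, which restrains sterol and lipid synthesis, from 28.5 to 73.2 CPM, and Plin2, a lipid droplet coat protein, from 32.3 to 9.71 CPM. They were the 2 higher and 1 lower past 2-fold of 41 other listed genes at 20 CPM or more, where 7.88% of all genes were. Elovl6, an elongase, was at 12.3 CPM at day 1 and 29.2 CPM at day 3. It was the 1 of 42 past 2-fold between those days, where 1.91% of all genes were. All of these values are single sums with no replicate and no test.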
